A study of Drosophila melanogaster with 2 samples.

Results

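The genes described here are 8 of the 15902 features measured in cells of the *Drosophila* brain and eye disc. They are 6 Wnt ligands, *wg*, *Wnt2*, *Wnt4*, *Wnt5*, *Wnt6* and *Wnt10*, and 2 genes known as targets of the pathway, *fz3* and *nkd*. They were chosen by name for their place in the pathway, with earlier results of these data known. Their share of cells, their level and their joint detection were studied over 7 classes of cells, each set by the detection of 1 or 2 genes. All 8 genes were in the table, each with more than the 20 UMIs (unique molecular identifiers, which count RNA molecules) that a feature needed to be compared between classes.

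Wnt proteins are secreted ligands that carry a lipid and bind Frizzled receptors. In the canonical branch, their binding stabilises Armadillo, the fly β-catenin, which acts with Pangolin to switch target genes on. In the eye-antennal disc, *wg* is best known from the margins of the eye field, where it opposes the start of retinal differentiation, and from the antenna, where it patterns the ventral side. Its targets include genes that dampen the pathway, such as *nkd* and *fz3*. In the brain, Wnt ligands guide axons and pattern the optic lobe.

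Larvae were raised for 120 h at 25 °C, and cells of brain and eye disc were sequenced with the 10x method. The labels give 1 library of *mirr*>*ND-42* RNAi larvae, in which line BL28894 silences *ND-42*, a subunit of mitochondrial complex I, and 1 library of *mirr*>OreR larvae. The driver *mirr* acts in the dorsal eye, so that only a part of the cells would carry the silencing. The methods of the study name the control Oregon-R and give no driver for it, while its results speak of control cells of *mirr-Gal4* larvae. How many animals were pooled is not given in the sources used here. The tables deposited for the 2 labels held the same values in every cell, so they were treated as 1 set of cells whose genotype was not told apart, and no comparison between *mirr*>*ND-42* RNAi and *mirr*>OreR was made. The set had 33552 cells, a number that the study states for neither genotype, and all 33552 barcodes differed. With 1 library there is no replicate, so no test was run between groups, and every interval below, in brackets, is an exact 95% interval of the counting error only. Where no UMI or cell was found, the share or level said to be allowed is that of 3 counts.

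The 33552 cells held 243468253 UMIs, with 500 to 333220 UMIs per cell and a median of 4092. The classes were eye (*eya* without *sim*, 4370 cells, median 10191 UMIs), antenna (*Dll* without *elav*, 773 cells, 7028 UMIs), peripodial-like (*Ance* and *hui* without *Dll*, 1052 cells, 14131 UMIs), neuroblast (*wor* and *mira*, 1666 cells, 14091 UMIs), neuron (*nSyb* and *brp*, 6250 cells, 5606 UMIs), lamina (*sim* and *eya*, 316 cells, 9115 UMIs) and glia (*repo*, 842 cells, 7779 UMIs). No class took 60.8% of the cells, which were shallow at a median of 2893 UMIs, and 5.66% of the cells entered 2 or more classes. Marker genes not used to set the classes were raised in most of them but did not mark them cleanly. For example, *so* was found in 40% of eye cells against 8.2% of all cells, *dpn* in 70.4% of neuroblasts against 17.7%, *gcm* in 58.5% of lamina cells against 7.47%, and *moody* and *alrm* in 11.9% and 10.9% of glia against 1.49% and 1.54%. The neuronal gene *elav* was found in 73% of eye cells and in 75.9% of all cells. Of the antennal markers, *ss* was found in 27% of antenna cells against 3.54% of all cells, while *dan* and *danr* were found in 9.96% and 15.4%, fewer than in eye cells (25.3% and 32.1%), and *ct* in 60.9% against 55.5%. At 2000 UMIs, *danr* and *ct* were in 4.61% and 40.5% of antenna cells, below the 5.65% and 42.4% of all cells, so the antenna is also best read by its rule. Likewise *Optix* and *toy* were more frequent in peripodial-like cells (44.5% and 65.2%) than in eye cells (40.1% and 53.8%), and the glial *Eaat1* more frequent in neuroblasts (42.3%) than in glia (15.6%). Of the peripodial-like cells, 4.85% had *Ubx*, against 4.4% of all cells, and 36.2% were also eye cells, so that this class is best read by its rule. As a measure of the RNA that free transcripts can leave in a cell, 212 hemocyte-like cells (*Hml* and *Pxn*, median 19635 UMIs) were set beside each class. By their median these cells are deeper than all 7 classes. How the part of free RNA changes with depth was not tested, so the measure may be too low for shallower cells. In them *He* and *srp*, which were not used to choose them, were found in 86.3% and 78.3% of cells, against 1.49% and 1.43% of all cells. Since detection rises with depth, cells were also thinned to 2000 UMIs each, which kept 25784 cells and left out 7768 shallower ones.

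*wg*, the founding Wnt of the fly, had 3102 UMIs in 1132 cells and was highest in the antenna. Its pooled level, in UMIs per 10000 UMIs of the class, was 0.474 (0.425 to 0.526) in antenna, 0.234 (0.214 to 0.256) in peripodial-like cells, 0.139 in glia, 0.116 in eye, 0.111 in lamina, 0.0758 in neurons and 0.0652 in neuroblasts, with 0.0586 (0.0386 to 0.0852) in hemocyte-like cells. Antenna and peripodial-like cells stood apart from each other and from the rest, while the intervals of glia, eye, lamina, neurons and neuroblasts overlapped in turn. Cells of no class held 39.7% of the *wg* UMIs, at a level of 0.137. The level was 4.06-fold (3.62 to 4.54) that of all other cells in antenna and 2.0-fold (1.82 to 2.2) in peripodial-like cells. Where 2 UMIs of each gate gene were asked for, the second was 1.76-fold. At 2000 UMIs, *wg* was found in 7.79% (5.82 to 10.2) of antenna cells, 4.54% of peripodial-like cells and 1.47% of eye cells, against 0.474% (0.012 to 2.61) of hemocyte-like cells. The shares of neuroblasts, 0.428%, and lamina cells, 0.318%, were below the hemocyte-like share, which rests on 1 of 211 cells, and were not told apart from it. Those of eye cells, glia and neurons lay within its interval. At full depth, 11 neuroblasts, 4 lamina cells and 1 hemocyte-like cell had 5 or more UMIs of *wg*.

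*Wnt6*, a close neighbour of *wg* on the chromosome with a role in the maxillary palp, had 4561 UMIs in 1210 cells and was highest in the same pair of classes. Its level was 0.524 (0.473 to 0.579) in antenna and 0.406 (0.379 to 0.434) in peripodial-like cells, followed by 0.182 in glia, 0.164 in eye, 0.111 in neurons, 0.0827 in lamina and 0.0745 in neuroblasts, with 0.0716 in hemocyte-like cells. These levels were 2.96-fold (2.66 to 3.29) and 2.44-fold (2.26 to 2.63) those of all other cells. At 2000 UMIs, 8.59% of antenna cells and 7.90% of peripodial-like cells had *Wnt6*, while none of 211 hemocyte-like cells had it, which allows a share of up to 1.42%. Few cells carried much of the RNA: 267 cells with 5 or more UMIs held 67.2% of the *Wnt6* UMIs, and 1 cell held 86 UMIs. Cells of no class held 42.4% of the *Wnt6* UMIs, at a level of 0.215 (0.205 to 0.225), above that of glia. An intron of *Wnt6* holds a copy of the mobile element roo on the same strand, which is a feature of its own with 296 UMIs.

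*Wnt2*, known for its roles in the gonad and trachea, was highest in the antenna alone. Its level was 0.254 (0.219 to 0.293) in antenna, against 0.0850 in lamina, 0.0836 in eye, 0.0684 in glia, 0.0588 in neurons, 0.0427 in peripodial-like cells, 0.0416 in neuroblasts and 0.0260 in hemocyte-like cells. The antennal level was 4.04-fold (3.45 to 4.71) that of all other cells and 5.95-fold (4.61 to 7.73) that of peripodial-like cells, the class that came second for *wg* and *Wnt6*. At 2000 UMIs, 4.29% (2.85 to 6.18) of antenna cells had *Wnt2*, against 0 of 211 hemocyte-like cells. Deep cells weighed much on this gene: the 2326 cells above 20000 UMIs, 6.93% of all, held 34.6% of all UMIs but 52.1% of those of *Wnt2*. Without them the level in eye fell below that of other cells, at 0.697-fold, against 1.34-fold with them.

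*Wnt4*, which acts in cell movement and in the targeting of retinal axons, had an order of its own. Its level was 1.40 (1.29 to 1.52) in lamina, 0.887 (0.832 to 0.944) in glia, 0.732 (0.710 to 0.754) in neurons, 0.506 in eye, 0.324 in antenna, 0.297 in neuroblasts and 0.238 in peripodial-like cells, with 0.245 (0.202 to 0.295) in hemocyte-like cells. Each of the first 4 classes stood apart from the next. Lamina was the class in which *Wnt4* was at least 2-fold higher than in all other cells, at 2.39-fold (2.19 to 2.59), and antenna cells had 0.531-fold. In the thinned cells the lamina ratio was 1.88-fold. At 2000 UMIs, 19.4% (15.2 to 24.2) of lamina cells and 17% (14.4 to 19.9) of glia had *Wnt4*, against 4.27% (1.97 to 7.94) of hemocyte-like cells. The share in peripodial-like cells, 4.05%, was below that value and was not told apart from it. Those in neuroblasts, 5.01%, antenna, 6.04%, and eye, 8.21%, had intervals that overlapped it. At full depth, 26 peripodial-like cells and 6 hemocyte-like cells had 5 or more UMIs of *Wnt4*.

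*Wnt5*, a ligand of the receptor Derailed in axon guidance, was the most even of the ligands. Its level was 0.414 (0.398 to 0.431) in neurons, 0.396 in eye, 0.373 in lamina, 0.369 in peripodial-like cells, 0.356 in antenna, 0.327 in neuroblasts and 0.305 (0.273 to 0.339) in glia, and no class differed from its neighbour in this order beyond its interval. Hemocyte-like cells stood below all 7, at 0.156 (0.122 to 0.197). At full depth, 21.7% (16.3 to 27.9) of these deeper cells had *Wnt5*, against 24.6% of antenna cells, the lowest share of the 7 classes, and 42.4% of neuroblasts, the highest. At 2000 UMIs the share of cells ranged between 6.17% in glia and 7.70% in peripodial-like cells, against 2.84% (1.05 to 6.09) of hemocyte-like cells. Most cells with *Wnt5*, 75.7%, had 1 UMI of it.

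*Wnt10*, a ligand of little known function in the fly, was the neuronal member. It had 1079 UMIs in 599 cells, and its level was 0.0724 (0.0656 to 0.0796) in neurons, against 0.0142 or less in each of the other 6 classes, whose intervals all overlapped, and 0 UMIs in hemocyte-like cells, where a count of 0 allows 0.00651. The neuronal level was 2.03-fold (1.79 to 2.30) that of all other cells, among which the cells of no class stood at 0.0629. Where 2 UMIs of each gate gene were asked for, the ratio was 1.32-fold, and against the other 6 classes alone it was 7.22-fold. At 2000 UMIs, 1.39% (1.10 to 1.73) of neurons had *Wnt10*, against 0.385% of eye cells and 0 of 211 hemocyte-like cells, which allows a share of up to 1.42%. No antenna cell of 629 had it at that depth, which allows a share of up to 0.477%.

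**Figure D1:**
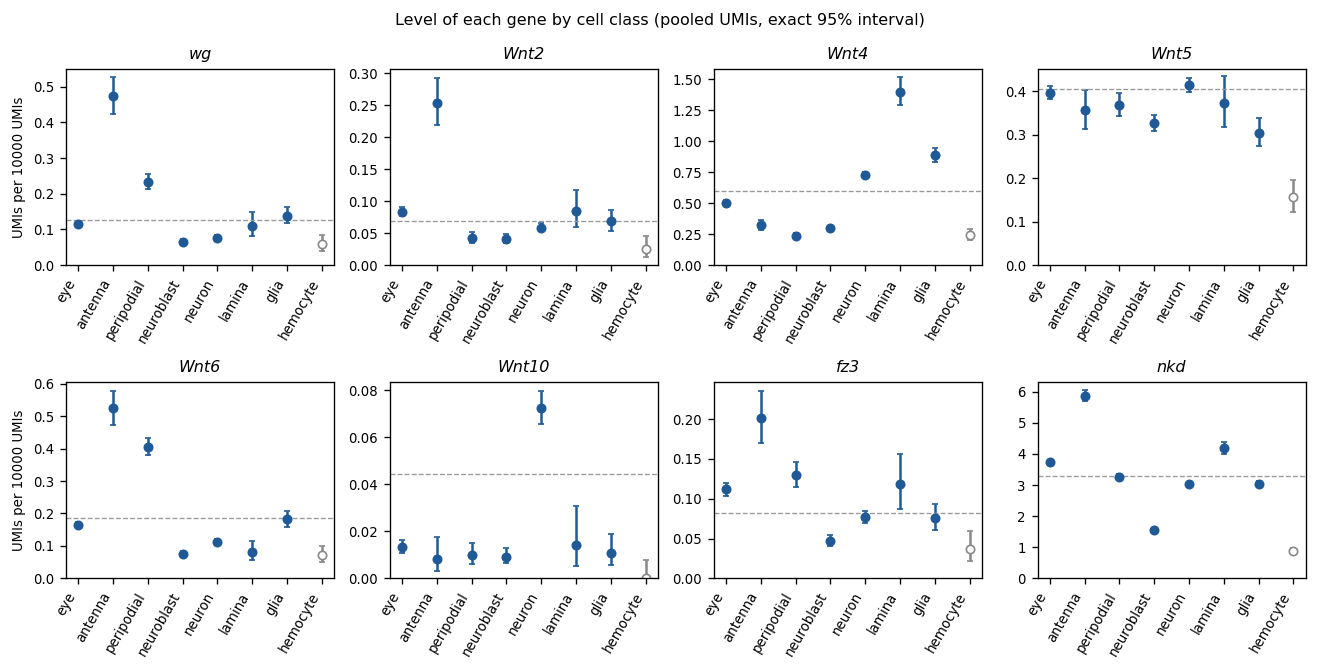
Pooled level of the 8 genes in UMIs per 10000 UMIs (y axis, linear from 0, own scale per gene) in the 7 cell classes and, as open grey circles, in the hemocyte-like cells. Points are pooled levels, bars are exact 95% Poisson intervals and the dashed line is the level over all cells. *wg* stands at 0.474 and *Wnt6* at 0.524 in antenna, *Wnt4* at 1.40 in lamina and *Wnt10* at 0.0724 in neurons.

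Both targets were highest in the antenna. *Dll*, which sets this class, is itself listed as a target of *wg* in discs, so the class was not chosen independently of the pathway. *fz3*, a receptor of the Frizzled family that *wg* switches on and that dampens the pathway, had a level of 0.201 (0.170 to 0.236) in antenna and 0.130 (0.115 to 0.146) in peripodial-like cells, followed by 0.118 in lamina, 0.112 in eye, 0.0769 in neurons, 0.0756 in glia and 0.0472 in neuroblasts, with 0.0369 in hemocyte-like cells. The antennal level was 2.56-fold (2.15 to 3.03) that of all other cells, and the levels of peripodial-like, lamina and eye cells overlapped in turn. At 2000 UMIs, 3.82% of antenna cells and 2.96% of peripodial-like cells had *fz3*, against 0 of 211 hemocyte-like cells.

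*nkd*, an inhibitor of the pathway that binds Dishevelled, was found in every class. It had 79744 UMIs in 20053 cells. Its level was 5.87 (5.69 to 6.05) in antenna, 4.18 in lamina, 3.73 in eye, 3.27 in peripodial-like cells, 3.04 in neurons, 3.04 in glia and 1.57 (1.53 to 1.61) in neuroblasts, with 0.889 (0.805 to 0.980) in hemocyte-like cells. Neurons and glia overlapped and every other step of this order was larger than its intervals. The antennal level was 1.84-fold (1.78 to 1.89) that of all other cells, and the neuroblast level was 0.440-fold (0.428 to 0.452). At 2000 UMIs, *nkd* was found in 60.3% of antenna cells, 59.6% of lamina cells and 22.4% of neuroblasts, against 11.8% (7.82 to 17.0) of hemocyte-like cells.

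Counted by class, the antenna held most of the high members. In antenna, 4 of the 8 genes (*wg*, *Wnt2*, *Wnt6* and *fz3*) were at least 2-fold higher than in all other cells, while 6.52% of the 12624 features compared were, and the median log2 ratio was 1.12 for the 8 genes and -0.16 for all features. In peripodial-like cells 2 of 8 were (*wg* and *Wnt6*), with 6.51% of features. In neurons 1 of 8 was (*Wnt10*), where 12.9% of features were, and in lamina 1 of 8 (*Wnt4*), where 5.13% were. In eye, neuroblasts and glia 0 of 8 were, with 5.96%, 5.08% and 7.18% of features. Lower by at least 2-fold in neuroblasts were 5 of 8 (*wg*, *Wnt4*, *Wnt6*, *Wnt10* and *nkd*), against 28.9% of features, with a median log2 ratio of -1.11 against -0.31 for all features. *Wnt10* was lower in eye (16.8% of features), antenna (22.6%) and glia (14.5%), *Wnt4* and *Wnt10* in peripodial-like cells (19.9%), *Wnt6* and *Wnt10* in lamina (21.4%), and none of the 8 in neurons (4.29%). The antennal class left out every cell with *elav*. Over all 3099 cells with *Dll*, with or without *elav*, the same 4 genes were at least 2-fold higher, *wg* at 3.98-fold, *Wnt2* at 4.29-fold, *Wnt6* at 2.89-fold and *fz3* at 2.51-fold.

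Cells with *wg* were often cells with *Wnt6*. In the thinned cells, 115 of 355 cells with *wg*, 32.4% (27.6 to 37.5), also had *Wnt6*, against 1.25% (1.12 to 1.39) of 25429 cells without *wg*. Conversely, 26.6% of 433 cells with *Wnt6* had *wg*, against 0.947% of cells without it. The phi coefficient, the correlation of detected against not detected over the 25784 cells of 1 library, was 0.282, and is given as a description. The pair was also found together within single classes. In antenna, 40.8% (27.0 to 55.8) of 49 cells with *wg* had *Wnt6*, against 5.86% of cells without it. In peripodial-like cells these shares were 43.5% (28.9 to 58.9) and 6.20%, and in eye cells 21.3% (11.9 to 33.7) and 1.56%. Among cells of no class they were 32.6% (25.8 to 39.9) and 1.07%.

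Of the other ligands, *Wnt5* was found in 12.4% (9.15 to 16.3) of cells with *wg*, against 8.19% (7.85 to 8.53) of cells without. Cells with *wg* had *Wnt4* in 9.86% (6.96 to 13.4), against 9.10% of cells without *wg*, and *Wnt2* in 1.13%, against 0.920%. *Wnt10* was found in 1 of the 355 cells with *wg*. Of the cells with *Wnt6*, 1.15% had *Wnt10*, against 0.966% of those without, although *Wnt10* is the next gene on the chromosome. In the pairs of *wg* with *Wnt4*, *Wnt2* and *Wnt10* and of *Wnt6* with *Wnt10* the intervals overlapped.

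*nkd* was found in 69.9% (64.8 to 74.6) of cells with *wg*, against 39.6% of cells without, and in 71.6% (67.1 to 75.8) of cells with *Wnt6*, against 39.4%. It was also found in 58% (51.6 to 64.2) of cells with *Wnt10*, against 39.8%, and in 51.3% (44.7 to 57.8) of cells with *Wnt2*, against 39.9%. Within classes, *nkd* was found in 65.6% of eye cells with *wg*, against 46.3%, in 85.7% of antenna cells with it, against 58.1%, and in 65.2% of peripodial-like cells with it, against 41.7%, and each of these intervals was apart. *fz3* was found in 5.35% (3.25 to 8.23) of cells with *wg*, against 1.09%, and in 6.47% (4.34 to 9.21) of cells with *Wnt6*, against 1.05%. Within classes, the share of cells with *fz3* was 3.28% with *wg*, against 1.83% without, in eye, 6.12% against 3.62% in antenna and 8.70% against 2.69% in peripodial-like cells, all with overlapping intervals, as were those of *Wnt6* in these 3 classes. In neurons (9.68% of 31 cells with *wg*, against 1.01%) and in cells of no class (4.97% of 181, against 0.836%) the intervals of *wg* were apart. The neuronal value rests on few cells, and the share of neurons with *wg* lay within the hemocyte-like interval. The targets also met each other, with *nkd* in 61% of cells with *fz3*, against 39.7% of cells without. For *Wnt4*, *nkd* was found in 44.8% of cells with it, against 39.5%, and *fz3* in 0.979%, against 1.16%, where the intervals overlapped. Over the 28 pairs, 10 had intervals that did not overlap in either direction, and all 10 were higher together. They are 35.7% of the pairs, while by the same rule 10.5% of all features were apart for a member and 5.98% were higher together with it, a share that depends on how often a gene is found. The count of 10 pairs was over all cells, and within classes some of them overlapped. *Wnt5* was found in 8.2% of eye cells with *wg*, against 7.65%, and in 8.16% of such antenna cells, against 6.38%. *nkd* was found in 54.7% of eye cells with *Wnt2*, against 46.5%, and in 70.4% of such antenna cells, against 59.8%. The part of free RNA and of the mix of classes in these shares was not tested.

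**Figure D2:**
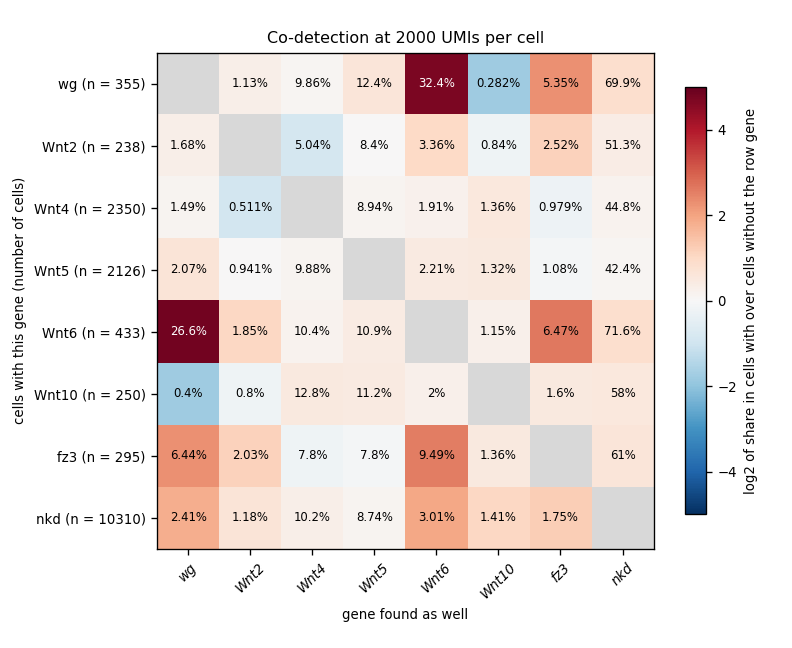
Joint detection of the 8 genes in cells thinned to 2000 UMIs. Each square gives the percentage of cells with the row gene (their number on the y axis) that also had the column gene (x axis), and its colour the log2 of that share over the share among cells without the row gene. *wg* with *Wnt6* is the darkest pair, at 32.4% and 26.6%.

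The cells with the most RNA of a ligand showed which other genes came with it. These genes were picked after their values were seen, the cells are deeper than average and no thinning was applied, so the values are a description. Of 186 cells with 5 or more UMIs of *wg* (median 18953 UMIs), 130 also had 5 or more of *Wnt6*, which is 69.9% of these and 48.7% of the 267 cells with as much *Wnt6*. In them *hui* was found in 81.7%, *Dll* in 60.8% and *dpp*, the BMP ligand of the disc, in 51.6%. In cells with less *wg* these shares were 10.1%, 8.95% and 5.51%. This company was not particular to *wg*. The 87 cells rich in *Wnt5* (median 86262 UMIs) had the same genes in 85.1%, 66.7% and 64.4%. The 14 cells rich in *fz3* (median 70888 UMIs) had them in 85.7%, 57.1% and 64.3%. The part of depth in these shares was not tested. The cells rich in *Wnt2* (52 cells, median 32570 UMIs) also had *Dll* in 80.8%, against 9.13% of the other cells, but only 2 of them had 5 or more UMIs of *Wnt6*. The 856 cells rich in *Wnt4* (median 8533 UMIs) had *Dll* in 10.2%, against 9.21%, *gcm* in 27.1%, against 6.95%, and *nSyb* in 47.8%, against 32.7%. They also had *eya* in 32.4%, against 13.5%. They were mixed, as 232 entered the eye class, 265 the neuron class and 294 no class. The 36 cells rich in *Wnt10* (median 4572 UMIs) had *nSyb* in 66.7%, against 33.1%, and *Dll* in 1 cell. Of the *wg*-rich cells, 81 entered no class, and of these 55.6% had *Dll* and 76.5% had *hui*.

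**Figure D3:**
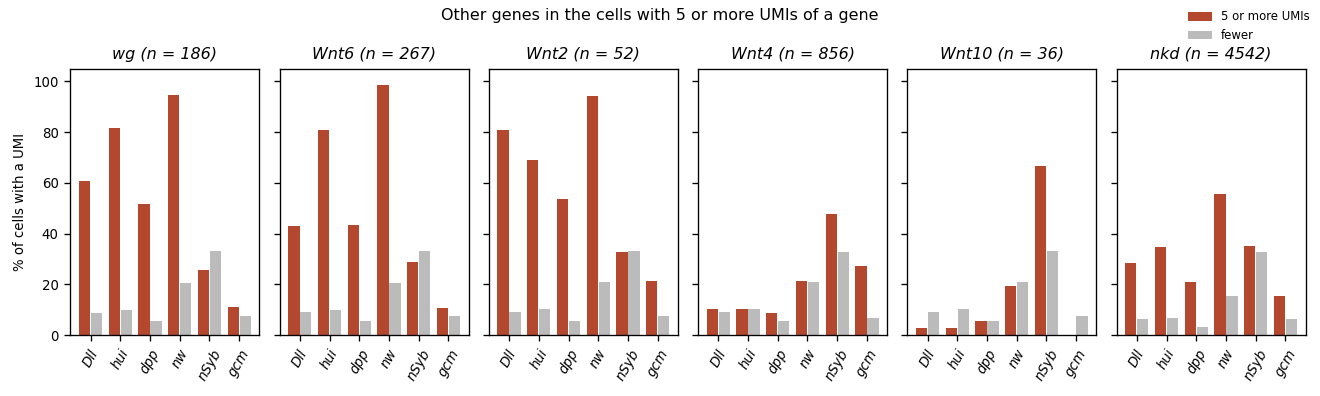
Share of cells (y axis, %) with a UMI of 6 other genes (x axis) among cells with 5 or more UMIs of *wg*, *Wnt6*, *Wnt2*, *Wnt4*, *Wnt10* or *nkd* (red, their number in each title) and among cells with fewer (grey), at full depth. *Dll* was found in 60.8% of *wg*-rich and in 10.2% of *Wnt4*-rich cells.

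Within the eye, genes that mark stages and places of the disc were set against the members. These 9 partners and those of the other classes gave 336 contrasts over the 8 genes, of which 42 had intervals that did not overlap, and 30 of these were higher with the partner. That is 12.5%, against 2.53% of all features over the same partners, where 1.58% were higher with the partner. This background was not matched for how often a gene is found. Of the 42, 29 were of *Wnt4* and *nkd*, found in 9.11% and 40% of thinned cells, and 13 of the other 6 genes. *Wnt5*, found in 8.25% of thinned cells, had none. *wg* was found in 4.98% (2.68 to 8.37) of eye cells with *dpp*, against 1.23% (0.911 to 1.63) of those without. It was also found in 1.97% of cells with *hth*, a homeobox gene of the undifferentiated margin and progenitors, against 0.722%. Here *hth* was widespread, in 79.6% of eye cells and 64.5% of all cells, so it marks no single place. It was in 96.4% of peripodial-like cells, which share 381 cells with the eye class. The part of these shared cells in the contrasts with *hth* and with *dpp* was not tested. *Wnt6* was found in 2.61% of eye cells with *hth*, against 0.722%, and *Wnt2* in 1.73%, against 0.601%. These shares are low, and the hemocyte-like intervals at the same depth reached 2.61% for *wg* and 1.73% for *Wnt6* and *Wnt2*, and the part of free RNA in them was not tested. *Wnt2* was rarer in eye cells with *elav*, at 0.550% (0.252 to 1.04), against 1.75% (1.27 to 2.34). The same contrasts for *wg* with the Iroquois genes *mirr*, *ara* and *caup* of the dorsal eye had overlapping intervals.

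*Wnt4* was less frequent in eye cells with 6 of the 9 partners. It was found in 0% (0 to 3.16) of 115 eye cells with *ato*, the proneural gene of the photoreceptor founder cells, against 8.45% (7.61 to 9.35) of eye cells without *ato*. It was also less frequent in cells with *Optix* (5.59%, against 8.90%), *ey* (4.03%, against 8.51%), *h* (5.01%, against 8.80%), *gl* (5.10%, against 8.69%) and the Iroquois genes (3.88%, against 9.13%), and more frequent with *hth* (9.49%, against 6.31%). *nkd* was found in 58.1% (53.9 to 62.3) of eye cells with *gl*, a transcription factor of differentiating cells, against 44.9% (43.2 to 46.5), and in 33.9% (25.3 to 43.3) of those with *ato*, against 47.0%. Its share with *Optix*, a gene of the progenitor field, was 39.8%, against 48.4%. *fz3* was also more frequent with *gl*, at 3.46% (2.10 to 5.35), against 1.61%. Among thinned cells, *gcm* and *tll* were found in 30.3% and 34.7% of lamina cells, the class with the highest *Wnt4* level. Both genes were also found in eye cells, in 7.44% and 7.3%, against 4.62% and 3.96% of all cells. The part of lamina-like cells in the eye contrasts of *Wnt4* was not tested.

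**Figure D4:**
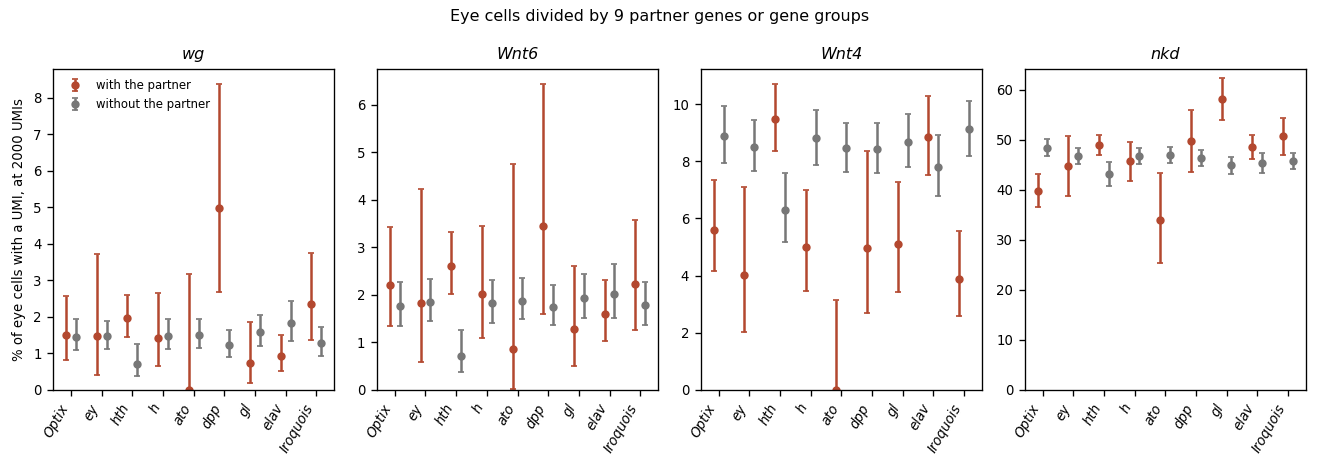
Share of eye cells (y axis, %, thinned to 2000 UMIs, own scale per gene) with *wg*, *Wnt6*, *Wnt4* or *nkd*, among cells with (red) and without (grey) each of 9 partner genes or gene groups (x axis, Iroquois meaning *mirr*, *ara* or *caup*). Bars are exact 95% binomial intervals. *Wnt4* was found in 0 of 115 cells with *ato*, and *wg* in 4.98% of cells with *dpp*.

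In antenna, *wg* was found in 27.1% (15.3 to 41.8) of 48 cells with *H15*, a T-box gene of the ventral appendage that *wg* activates, against 6.20% (4.38 to 8.48) of those without, and in 20.4% of 54 cells with its paralog *mid*, against 6.61%. *Wnt6* was found in 20.8% of cells with *H15*, against 7.57%, and *nkd* in 81.2%, against 58.5%. Cells with *ss*, a gene of antennal identity, had *nkd* in 74.6%, against 57.1%. In peripodial-like cells *wg* met *dpp* again, in 16% (7.17 to 29.1) of 50 cells with it, against 3.95%. In glia, *Wnt4* was found in 32.3% (25.9 to 39.3) of cells with *gcm*, the gene that starts glial fate and also acts in lamina neurons, against 11.4% (8.83 to 14.3), and in 4.26% of 47 cells with *Eaat1*, against 17.9%. In neurons, *Wnt10* was found in 2.32% (1.57 to 3.29) of cells with *VAChT*, a gene of cholinergic neurons, against 1.12% (0.826 to 1.47). *Wnt4* was found in 15% of neurons with *acj6*, against 10.6%, and in 5.67% of neurons with *ey*, against 11.2%. In lamina, *nkd* was found in 71.6% of cells with *gcm*, against 54.3%. *Wnt5* had no contrast of 42 with intervals apart.

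Other genes of the pathway came from a list of 36, chosen like the members with earlier results of these data known. *Dll*, which is on this list, was left out of the antenna count because it sets that class. In antenna, 3 of the 34 listed genes compared (*Notum*, *H15* and *mid*) were at least 2-fold higher than in all other cells and 5 were at least 2-fold lower, with 6.52% and 22.6% of all features, and the median log2 ratio was -0.20 against -0.16 for all features. These counts are close to the background or below it. *Notum*, a secreted enzyme that removes the Wnt lipid and is itself a target of *wg*, had a level of 0.294 in antenna against 0.0851 in other cells, 3.45-fold (2.98 to 3.97), and was 2.08-fold (1.85 to 2.32) higher in peripodial-like cells. *H15* was 3.64-fold and *mid* 2.83-fold higher in antenna. In neurons 3 of 35 were higher, with 12.9% of features: the receptors *fz2*, at 2.21-fold, and *Drl-2*, at 5.67-fold, and the wing gene *vg*, at 2.08-fold. In glia 1 of 35 was, with 7.18% of features, *Swim*, which helps Wg to spread, at 12.3-fold. In neuroblasts 13 of 35 were at least 2-fold lower, among them *Notum*, *fz* and *fz2*, where 28.9% of features were. In eye and lamina none was higher, with 5.96% and 5.13% of features. The ligand gene *wntD* had 6 UMIs in 4 cells and was not compared.

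For each of the 8 genes, the 3 genes most like it in detection were found by phi over the 25784 thinned cells, among 8778 features of at least 200 UMIs. Those of *wg* were *nw* (0.127), *pio* (0.123) and *ImpE1* (0.115), and those of *Wnt6* were *nw* (0.176), *Sb* (0.134) and *pio* (0.130), so *nw* and *pio* were named for both. *nw* was found in 55.2% of cells with *wg*, against 15.3%, and in 65.1% of cells with *Wnt6*, against 15%. Those of *Wnt2* were *ss* (0.0913), *Sb* (0.0793) and *tnc* (0.0593). *Wnt4* was most like the neuronal genes *cpo* (0.0745), *Ank2* (0.0738) and *CadN* (0.0730). *Wnt5* was like no gene above 0.0363, the value of *l(3)neo38*. *fz3* was most like *ft* (0.0635), *nw* (0.0622) and *CG7675* (0.0589), and *nkd* was most like *aop* (0.143), *Tom* (0.131) and *E(spl)malpha-BFM* (0.117), the last 2 of which are Notch-responsive genes of the Bearded family. These coefficients are low, and all points share 1 library.

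*Wnt10* was most like *ninaC*, a myosin gene of photoreceptors that lies next to it. Of 250 thinned cells with *Wnt10*, 61 had *ninaC*, 24.4% (19.2 to 30.2), against 0.223% of 25534 cells without, with a phi of 0.351. Conversely, 51.7% of the 118 cells with *ninaC* had *Wnt10*. At full depth, neurons with *Wnt10* had *ninaC* in 34.9% (28.2 to 42.1), against 0.479% of neurons without, and eye cells with *Wnt10* in 25% (15 to 37.4), against 0.372%.

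The positions of these genes were read from the Ensembl annotation of the BDGP6 assembly, the assembly that the study used. *Wnt4* (chromosome 2L, 7255419 to 7277171, minus strand), *wg* (7307159 to 7316265), *Wnt6* (7333714 to 7352542) and *Wnt10* (7363379 to 7377528, these last 3 on the plus strand) form a cluster of 122110 bp, with gaps of 29987, 17448 and 10836 bp. *ninaC* starts 173 bp after *Wnt10* on the same strand. *Wnt2* lies on 2R (9494166 to 9503188), *Wnt5* on X (18501401 to 18505405), *fz3* on X (769945 to 784222) and *nkd* on 3L (19003741 to 19045449). *CG13786*, 2436 bp beyond the end of *Wnt4*, was found in 0.681% of cells with *Wnt4*, against 0.0597%, and 53.3% of the 30 cells with *CG13786* had *Wnt4*. *tw*, 523 bp beyond *fz3*, was found in 6.10% of cells with *fz3*, against 2.16%. *brp*, 576 bp beyond *Wnt2*, was found in 16.4% of cells with *Wnt2*, against 18.0%, with overlapping intervals. How reads between close genes of one strand were assigned was not tested, so the values of *Wnt10* and *ninaC* are uncertain with respect to each other. No sequences were used here.

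**Figure D5:**
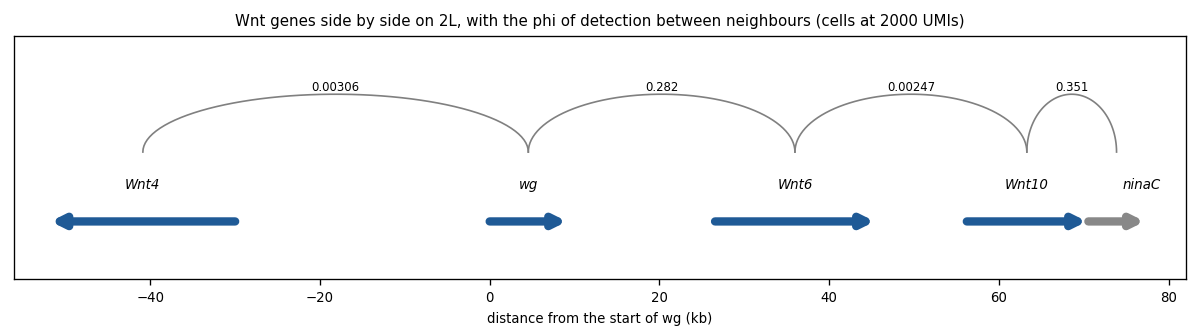
Map of the Wnt cluster on 2L with *ninaC* (grey), drawn to scale by distance from the start of *wg* (x axis, kb), with arrows in the direction of transcription. Numbers on the arcs are the phi of joint detection of neighbours over 25784 cells thinned to 2000 UMIs, 0.282 for *wg* and *Wnt6* and 0.351 for *Wnt10* and *ninaC*, against 0.00306 and 0.00247 for the other arcs.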

How the data were processed

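Cells of brain and eye disc were sequenced with the 10x method. According to the labels and the methods, reads were counted with Cell Ranger on BDGP6 with a BDGP6.91 annotation and analysed with Seurat. The values the authors deposited are natural logs: 1 was added to the UMIs scaled to 10000 per cell before the logarithm was taken. They stand in 2 identical tables of 33552 cells and 15902 features, of which 1 was used.

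Values were turned back from the log scale and expressed as multiples of the smallest positive value in the same cell. All multiples were whole within 0.01 (100%) and served as UMI counts, 243468253 in total. Members and lists were chosen with earlier results of these data known. Named were the 8 genes, the pathway genes at least 2-fold higher in a class, the partner genes and, for each member, the 3 genes of highest phi. Genes with at least 20 UMIs were compared between a class and all other cells by the ratio of pooled UMIs. Intervals were exact: Clopper-Pearson for shares, Poisson for levels, conditional binomial for ratios. They cover counting error, since 1 library gives no replicates. For shares, cells were thinned to 2000 UMIs (seed 1). No doublet caller was run. Cells of several classes and cells above 20000 UMIs were left out in alternatives instead. Of the marker lists, muscle precursor genes summed to 0.389 to 2.05 UMIs per 10000 UMIs over the 7 classes, *trh* of trachea to 0.0142 to 0.0765, and *Fbp1* of fat body to at most 0.00236. The ratios, their intervals and the shares of joint detection were checked on simulated counts with known values. These counts were drawn independently, so the check does not cover UMIs gathered in few cells, as for *Wnt6*. Python 3.11.15, numpy 2.4.6, scipy 1.17.1 and matplotlib 3.10.9 were used, and Ensembl annotation release 115.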

Additional observations from a re-analysis of the deposited data

How the results depend on the processing

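Values are counting statistics of 1 library, so what a repeat would give was not measured, and depth differs between classes. No paired analysis was possible because the labels give 1 sample per group and both share 1 table. At a threshold of 3-fold, the count of genes higher was 2 in antenna and 0 in peripodial-like cells, neurons and lamina. With 2 UMIs needed of each gate gene it was 1 in peripodial-like cells and 0 in neurons, and in cells thinned to 2000 UMIs it was 0 in lamina. The other 43 alternatives of these counts stayed within 1.5-fold. Ratios that changed side of 1 were, in eye, *wg* at 1.13 as the mean over cells and 1.07 in thinned cells, *Wnt6* at 1.03 as the mean over cells, and, without cells above 20000 UMIs, *Wnt2* at 0.697 and *Wnt4* at 1.06. *Wnt2* in peripodial-like cells was 1.16 in thinned cells. With *elav* allowed in the antenna, a setting chosen after seeing the data, *Wnt5* was 1.02. The cause was not tested. Of the ratios under alternatives, 7 changed side, 179 others moved beyond their interval and 158 did not. Of the shares of cells with a gene, 162 moved and 62 did not, and 55 of these moves came with thinning to 2000 UMIs. Of the shares of joint detection, 56 moved and 56 did not, and 54 of these moves came with all UMIs of each cell.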

Other observations

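The cells with *ninaC* were few. *ninaC* had 400 UMIs in 305 cells at full depth, at a level of 0.0243 in neurons, 0.0242 in cells of no class and 0.00592 in eye cells, and 0 UMIs in hemocyte-like cells. Neuroblasts with *Wnt10* had *ninaC* in 7 of 19, against 0.425% of neuroblasts without *Wnt10*, and in antenna none of 5 cells with *Wnt10* had it. *nkd* has a neighbour of its own, *SmydA-2*, 488 bp beyond its end on the same strand, which was found in 0.242% of cells with *nkd*, against 0.0517% of cells without. Of the 33 cells with *SmydA-2*, 75.8% had *nkd*. These neighbours were looked at after the values of *Wnt10* and *ninaC* had been seen.

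Seen over the cluster on 2L, 87.7% of the thinned cells had none of *Wnt4*, *wg*, *Wnt6* and *Wnt10*, and 101 cells had *wg* and *Wnt6* without *Wnt4* or *Wnt10*, 52 of them in no class. No thinned cell had *wg*, *Wnt4* and *Wnt10* together. Of all 8 genes, 48.9% of thinned cells had none and 5 cells had 5, the most that any of them had.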
